A study of Mus musculus with 12 samples.

Results

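Cacna1a, the gene targeted in the mice studied here, codes for the subunit that lines the pore of the voltage-gated P/Q calcium channel. The array annotation assigned 4 probe sets to it alone, of 45101 on the array, and all 4 are described: 1450510_a_at, 1430408_at, 1459996_at and 1444455_at. Total RNA from cerebellum was measured in 12 mice aged 6 weeks on a C57BL/6 background, with 1 array per mouse and 3 arrays in each of 4 groups. The groups were knockin mice of the 118Q line (MPI 118Q/118Q), their wild type littermates, knockin mice of the 11Q line (MPI 11Q/11Q) and their wild type littermates. Both copies of the Sca6 knockin allele were present in a knockin mouse, and the lines are named for 118 and 11 glutamines (Q). The sources used here give neither the sequence exchanged with the allele nor the positions of the probes in the gene, so it is not known whether a probe set reads the knocked-in stretch. A knockin allele is still transcribed, and the level of Cacna1a therefore does not check the genotype labels.

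The P/Q channel opens when a neuron is depolarised and lets calcium into the cell. In cerebellum it carries most of the calcium current of Purkinje cells, the output neurons of the cerebellar cortex, and it triggers transmitter release at the terminals of granule cells and other neurons. The pore is made by the Cacna1a protein, while beta and alpha2delta subunits set how much channel reaches the membrane and how it gates. Loss-of-function mutations of the gene cause episodic ataxia in humans and ataxia in mice, and an expanded CAG repeat near the end of its coding sequence causes spinocerebellar ataxia type 6 (SCA6). The gene lies on mouse chromosome 8 in the RefSeq annotation of GRCm38.p6.

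Values are RMA expression levels on a log2 scale as the authors deposited them, and a level of 1 probe set is not comparable with that of another. Array medians lay between 2.21 and 2.38. The granule cell marker Gabra6, a GABA receptor subunit, read 10.38 to 10.58 in the arrays of the 118Q line and 10.43 to 10.57 in those of the 11Q line. Pcp2, a Purkinje cell marker, read 10.33 to 10.72 in the 118Q line and 10.29 to 10.62 in the 11Q line. Pcp2 does not stand for the other Purkinje markers. Of 11 measured, 10 were lower in 118Q knockin mice than in littermates, with a list median of -0.76, and Pcp2 was the 1 that was higher. Of 7 probe sets for 6 forebrain neuron genes, 0 passed the filter on low values. A filter on the mean over 12 arrays left out 40% of probe sets (log2 mean under 1.58). Of the Cacna1a probe sets 3 passed, and 27002 probe sets were tested in all. The labels do not say whether the mice of a group came from separate litters, and p-values measure the spread between these arrays.

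The probe sets 1450510_a_at and 1430408_at were lower in 118Q knockin than in 11Q knockin mice, by 1.60-fold and 1.70-fold. Their wild type means were also lower in the 118Q line, a difference that did not pass the test over all probe sets. Neither passed the test between knockin mice and their own littermates in either line. The third probe set, 1459996_at, passed no test, and 1444455_at lay below the filter.

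The probe set 1450510_a_at, whose suffix marks probes shared by several transcripts of 1 gene, read 5.67, 5.65 and 5.50 in 118Q knockin mice and 6.09, 5.54 and 6.19 in their wild type littermates. In the 11Q line it read 6.28, 6.42 and 6.17 in knockin mice and 6.36, 6.25 and 6.48 in wild type mice. The 118Q knockin arrays and wild type replicate 2 of that line were low, and the other arrays lay above 6. Group means were 5.61 ± 0.09 in 118Q knockin, 5.94 ± 0.35 in 118Q wild type, 6.29 ± 0.12 in 11Q knockin and 6.36 ± 0.12 in 11Q wild type mice (SD, n = 3 each).

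The probe set 1430408_at read 4.94, 5.10 and 5.43 in 118Q knockin mice and 5.40, 5.04 and 5.45 in their wild type littermates. In the 11Q line it read 5.71, 5.82 and 6.24 in knockin mice and 5.66, 5.71 and 5.73 in wild type mice. All 6 arrays of the 118Q line lay below all 6 arrays of the 11Q line. The group means were 5.16 ± 0.25 in 118Q knockin, 5.30 ± 0.22 in 118Q wild type, 5.92 ± 0.28 in 11Q knockin and 5.70 ± 0.03 in 11Q wild type mice (SD, n = 3 each).

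The probe set 1459996_at followed another course. It read 5.35, 5.23 and 5.22 in 118Q knockin mice against 5.51, 5.26 and 4.53 in wild type littermates, and 5.56, 5.48 and 5.51 in 11Q knockin mice against 5.55, 5.40 and 4.97 in wild type littermates. Replicate 3 of each wild type group was the lowest array of its group, and the remaining 10 arrays lay between 5.22 and 5.56. The fourth probe set, 1444455_at, read 0.86 to 1.35 over all arrays, under the filter. Its 3 arrays of 118Q knockin mice lay above those of littermates by a mean of 0.07, and over all probe sets without a filter that difference had an adjusted p of 0.865 by limma.

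**Figure D1:**
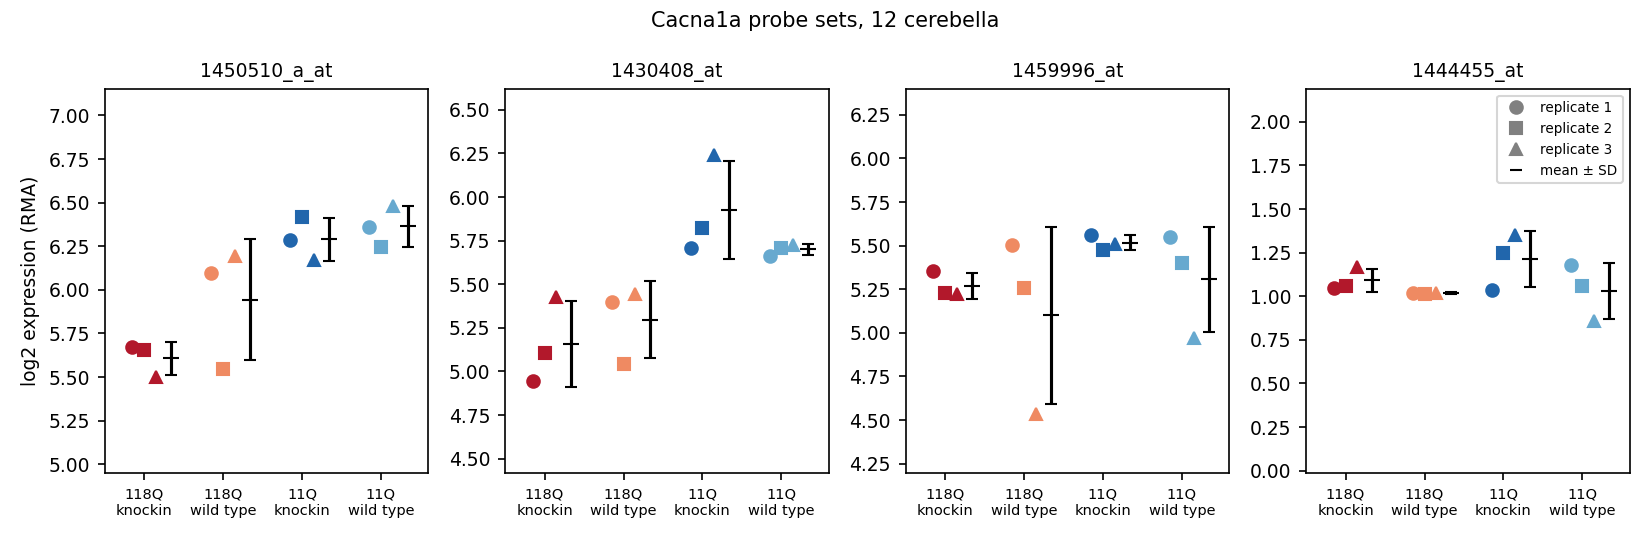
Log2 expression of the 4 Cacna1a probe sets (one panel each, each axis spanning the same number of log2 units) in every array, with symbols for replicates 1 to 3 and bars for the mean and SD of 3 arrays. In 1430408_at the 6 arrays of the 118Q line lie below the 6 of the 11Q line, and in 1459996_at replicate 3 of each wild type group lies apart at 4.53 and 4.97.

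Whether the level of the transcript differs with the expanded allele is addressed by the 118Q knockin mice and their littermates. By limma, 1450510_a_at differed by -0.34 ± 0.16 (SE, 3 against 3 arrays; adjusted p = 0.287), with a 95% interval of -0.68 to 0.01. The difference of 1430408_at was -0.14 ± 0.17 (adjusted p = 0.714) and that of 1459996_at 0.17 ± 0.21 (adjusted p = 0.727). None of the 3 tested probe sets passed, where 2.24% of all tested probe sets did, and the groups overlapped in each, where they did not overlap in 21.6% of all tested probe sets. The intervals still allow a fall of 0.68 for 1450510_a_at and a rise of 0.63 for 1459996_at. Without wild type replicate 2, whose 1450510_a_at signal was in the range of the knockin mice, 1450510_a_at differed by -0.54 (adjusted p = 0.0549). Without wild type replicate 3, 1459996_at differed by -0.11 (adjusted p = 0.817), the opposite sign.

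In the 11Q line, which carries the shorter tract, 1450510_a_at differed between knockin and wild type mice by -0.07 ± 0.16, 1430408_at by 0.22 ± 0.17 and 1459996_at by 0.21 ± 0.21 (SE, 3 against 3 arrays; adjusted p = 0.977 or more by limma). The share called was 0% of 27002 probe sets by limma, and 952 (3.53%) had an unadjusted p below 0.05. The difference between the effects of the alleles, 118Q minus 11Q, was -0.26 ± 0.22 for 1450510_a_at, -0.36 ± 0.24 for 1430408_at and -0.04 ± 0.30 for 1459996_at. None of these passed either (adjusted p = 0.616 or more by limma), where 0.0963% of all probe sets did. The 95% intervals of this difference reached as low as -0.87 for 1430408_at and as high as 0.61 for 1459996_at.

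The knockin groups were then compared with each other. In 118Q knockin mice 1430408_at was 1.70-fold lower than in 11Q knockin mice, at -0.77 ± 0.17 (SE, 3 against 3 arrays; adjusted p = 0.0121 by limma). Likewise 1450510_a_at was 1.60-fold lower, at -0.68 ± 0.16 (adjusted p = 0.0156). The probe set 1459996_at differed by -0.25 ± 0.21 and did not pass (adjusted p = 0.469). Thus 2 of 3 probe sets were called, where 13.5% of all tested probe sets were called in either direction and 6.47% as lower. In all 3 probe sets the 118Q knockin arrays lay below the 11Q knockin arrays, which was so for 15.2% of all tested probe sets. An exact two-sided permutation test gave p = 0.1 for each, the smallest p that 3 against 3 arrays allow. Single arrays ended these calls: 1450510_a_at missed without 118Q knockin replicate 3 (adjusted p = 0.0667) or 11Q knockin replicate 2 (0.0641), and 1430408_at without 11Q knockin replicate 3 (0.0511).

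The wild type littermates of the lines, which carry no knockin allele, had differences of the same sign. Between wild type mice of the 118Q line and those of the 11Q line 1450510_a_at differed by -0.42 ± 0.16 and 1430408_at by -0.40 ± 0.17 (SE, 3 against 3 arrays). Neither passed over all probe sets (adjusted p = 1.00 by limma for both), and their unadjusted p-values were 0.0201 and 0.0318. Of all probe sets 0% were called by limma, and 3.5% had an unadjusted p below 0.05. In both probe sets the 3 arrays of the 118Q line lay below the 3 of the 11Q line, which was so for 3.6% of all tested probe sets. The difference of 1459996_at was -0.21 ± 0.21, and turned to 0.08 without 118Q wild type replicate 3.

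A comparison of all 6 arrays of the 118Q line with all 6 of the 11Q line was added after the values had been seen. It gave -0.59 ± 0.12 for 1430408_at and -0.55 ± 0.11 for 1450510_a_at (SE, 6 against 6 arrays; adjusted p = 0.0128 by limma for both), and 7.87% of all tested probe sets were called, 4.53% as lower. The 118Q line lay wholly below the 11Q line in 1430408_at and in 0.952% of all tested probe sets. Both calls held without any single array, with adjusted p-values of 0.0121 to 0.0363 for 1430408_at and 0.00695 to 0.0391 for 1450510_a_at. Over the same arrays 1459996_at differed by -0.23 ± 0.15 (adjusted p = 0.364). An exact two-sided permutation test over the 12 arrays gave p = 0.00216 for 1430408_at, the smallest that this design allows, 0.00433 for 1450510_a_at and 0.201 for 1459996_at. It shuffled knockin and wild type arrays together. Because the split by line was chosen after the values were seen, its p-values and leave-one-out fits are given as a description.

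**Figure D2:**
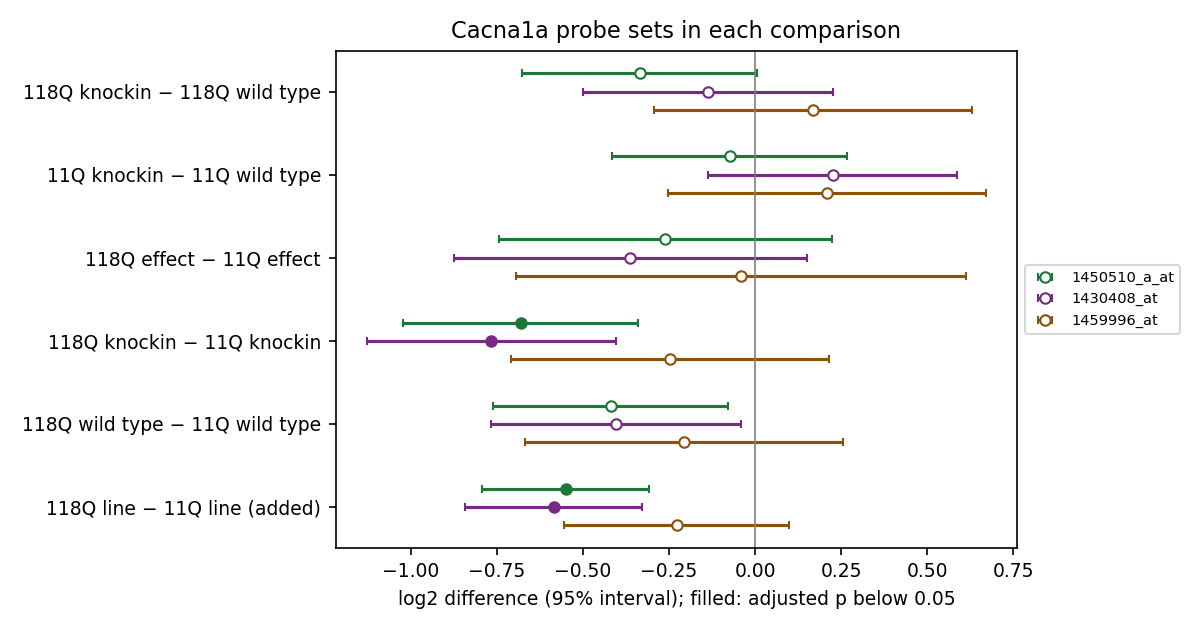
Log2 difference of the 3 tested Cacna1a probe sets in each comparison with its 95% interval from limma; a filled point has an adjusted p below 0.05 over all tested probe sets. The filled points are 1450510_a_at and 1430408_at for 118Q knockin against 11Q knockin mice and for the 118Q line against the 11Q line. The comparison of lines was added after the values had been seen. In the within-line comparisons every interval spans 0.

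The probe sets were set against each other array by array. Over the 12 arrays 1430408_at and 1450510_a_at correlated at a Pearson r of 0.74, which fell to 0.18 once each group's mean was removed. The correlation of 1459996_at was 0.25 with 1430408_at and 0.07 with 1450510_a_at. These arrays share lines and groups, and the values are given as a description. The gap between 1450510_a_at and 1459996_at was 0.34 ± 0.08 in 118Q knockin and 0.77 ± 0.15 in 11Q knockin mice (SD, n = 3 each; exact two-sided permutation p = 0.1, the smallest possible). The gap between 1430408_at and 1459996_at was -0.11 ± 0.31 in 118Q knockin and 0.41 ± 0.30 in 11Q knockin mice, with overlapping arrays (exact permutation p = 0.2, n = 3 each).

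Measures of the RNA and of the labelling were compared with the Cacna1a values. The mean signal of the poly-A spike-in controls, bacterial RNAs that can be added to a sample before labelling, was 4.32 ± 0.14 in 118Q knockin, 3.86 ± 0.37 in 118Q wild type, 2.82 ± 0.47 in 11Q knockin and 3.21 ± 0.41 in 11Q wild type mice (SD, n = 3 each). The lowest array, 11Q knockin replicate 3, read 2.31, close to the array medians of 2.21 to 2.38, so this measure was weak in some arrays. The signal of 18S ribosomal RNA was 8.80 ± 0.37 in 118Q knockin, 9.92 ± 0.35 in 118Q wild type, 10.24 ± 0.13 in 11Q knockin and 10.44 ± 0.17 in 11Q wild type mice. Among 21 relations of the 3 probe sets to 7 array measures, 1430408_at ran against the spike-in signal with a Pearson r of -0.89 (permutation p = 8e-05, adjusted p = 0.00168) and a Spearman rho of -0.82 (permutation p = 0.00177, adjusted p = 0.0345). That r was -0.80 without the 2 arrays farthest from the median, -0.57 within the 118Q line, -0.74 within the 11Q line and -0.56 with group means removed.

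The probe set 1450510_a_at ran with the 18S signal, with a Pearson r of 0.88 (permutation p = 0.0004, adjusted p = 0.0042) and a Spearman rho of 0.76 (permutation p = 0.00658, adjusted p = 0.0345). Its r was 0.84 without the 2 farthest arrays, 0.78 within the 118Q line, 0.11 within the 11Q line and 0.49 with group means removed. The relation therefore did not hold within the 11Q line. The crossed pairs were related too. With the 18S signal 1430408_at had an r of 0.67 (permutation, adjusted p = 0.0403; rho 0.78, adjusted p = 0.0345), 0.25 within the 118Q line and 0.05 within the 11Q line. With the spike-in signal 1450510_a_at had an r of -0.73 (permutation, adjusted p = 0.0321; rho -0.65, adjusted p = 0.0727). That r was -0.84 within the 118Q line and 0.96, the opposite sign, within the 11Q line. The difference between 3′ and 5′ probe sets, a measure of RNA integrity and labelling, was lower in every 118Q knockin than in every 11Q knockin array for Actb (-0.22) and Gapdh (-0.23), with an exact permutation p = 0.1 for each (n = 3 each). Over 12 arrays 1450510_a_at had an r of 0.74 with the Actb measure (permutation, adjusted p = 0.0321; rho 0.77, adjusted p = 0.0345), 0.70 without the 2 farthest arrays, 0.68 within the 118Q line and 0.02 within the 11Q line. With the Gapdh measure r was 0.72 for 1430408_at (permutation, adjusted p = 0.0321; rho 0.71, adjusted p = 0.0412) and 0.71 for 1450510_a_at (adjusted p = 0.0388; rho 0.71, adjusted p = 0.0412). These were 0.75 and 0.72 without the 2 farthest arrays, 0.40 and 0.72 within the 118Q line, and -0.05 and -0.63 within the 11Q line. With the 18S signal as covariate the difference of 1450510_a_at between the knockin groups was -0.17 (adjusted p = 0.873), and with the spike-in signal, an alternative added after the values had been seen, that of 1430408_at was -0.28 (adjusted p = 0.917). With the covariates exchanged the differences stayed near those without one, at -0.68 for 1450510_a_at with the spike-in signal (adjusted p = 0.758) and -0.67 for 1430408_at with the 18S signal (adjusted p = 0.560). No call remained for either probe set between the knockin groups or between the lines under either covariate. Under either covariate the count called over all probe sets between the knockin groups was 0 by limma, against 3655 without one, and 2941 with the 18S and 1839 with the spike-in covariate had an unadjusted p below 0.05. Line and, within the 118Q line, genotype cannot be told apart from RNA measures or any order of processing in this design.

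**Figure D3:**
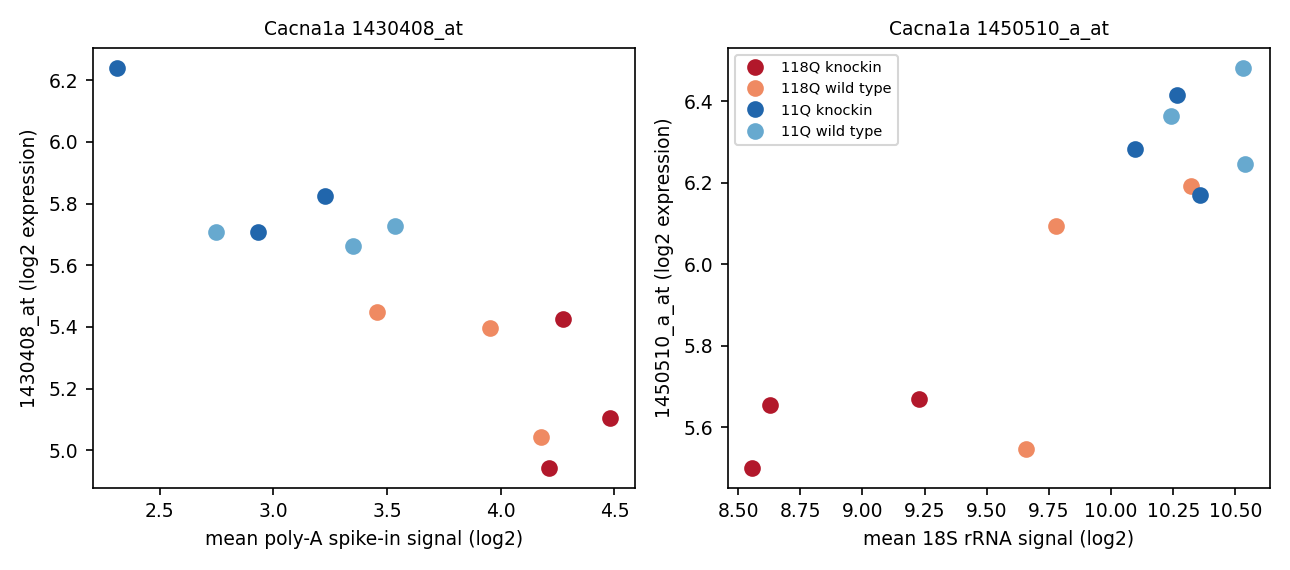
Cacna1a log2 expression against array measures, 1 point per array coloured by group: 1430408_at against the mean poly-A spike-in signal (left) and 1450510_a_at against the mean 18S ribosomal RNA signal (right). The 118Q knockin arrays have the lowest 18S signal (8.56 to 9.23) and spike-in signals of 4.21 to 4.48, above every array of the 11Q line.

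Purkinje cells are a main site of Cacna1a expression, and markers of these cells were examined beside it. Of 11 measured Purkinje cell markers, 5 were called lower than in wild type littermates and 0 higher, with a median difference of -0.76 against 0.06 over 12671 genes, of which 1.14% were called. The level of Slc1a6, which clears glutamate at Purkinje cell synapses, fell to a mean of 7.12 in 118Q knockin mice, against 8.25 in wild type littermates (-1.13 ± 0.20 SE; adjusted p = 0.0147 by limma). Plxdc1 differed by -1.08 and Dner, a Notch ligand, by -1.04, while Pcp2 differed by 0.14 and did not pass. Leaving out 1 array of these groups gave 0 to 8 called markers. It was 0 without knockin replicate 2 or 3 or wild type replicate 1 or 3, and 8 without knockin replicate 1. With the 18S or the spike-in signal as covariate no list gene of the Purkinje or auxiliary subunit lists was called, and with p-values adjusted over 1 probe set per gene 1 Purkinje marker was. In bulk tissue fewer Purkinje cells and less RNA per cell cannot be told apart, nor can either be told apart from the RNA measures. Every 118Q knockin array lay below all arrays of its littermates in 18S signal and the Gapdh measure, and above them in spike-in signal. With the 18S signal as covariate Slc1a6 differed by -0.55 (adjusted p = 0.847 by limma).

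Among the 118Q knockin arrays the Purkinje marker median had an SD of 0.46 (n = 3). In the same arrays the SD was 0.09 for 1450510_a_at, 0.25 for 1430408_at and 0.07 for 1459996_at. The marker median, as a deviation from the mean of all arrays, was -0.10, -1.02 and -0.59 in 118Q knockin replicates 1 to 3 and 0.12 to 0.33 in wild type littermates, while 1450510_a_at was 5.67, 5.65 and 5.50 in those knockin arrays. In the wild types of the 118Q line the marker median was 0.02 above that of the 11Q wild types, while the means of 1450510_a_at and 1430408_at were below those of the 11Q wild types. Over 12 arrays 1450510_a_at had a Pearson r of 0.64 with the marker median (permutation p = 0.0173, adjusted p = 0.0403) and a Spearman rho of 0.57 (permutation p = 0.0582, adjusted p = 0.094). The r was 0.40 without the 2 farthest arrays, 0.55 within the 118Q line, 0.89 within the 11Q line and 0.14 with group means removed. With the marker median 1430408_at had an r of 0.38 and 1459996_at of -0.06 (permutation, adjusted p = 0.382 and 0.944). Granule cell markers, 8 measured, had a median difference of -0.01 between 118Q knockin and wild type mice and -0.12 between the knockin groups. By limma 0 were called in both, and 0 and 2 had an unadjusted p below 0.05. Between the knockin groups 12% of all genes passed even the adjusted threshold, so these 2 are no result about granule cells. The granule marker median had an r of 0.77 with 1430408_at (permutation, adjusted p = 0.0193; rho 0.64, adjusted p = 0.0727), 0.55 without the 2 farthest arrays, -0.17 within the 118Q line, 0.77 within the 11Q line and 0.26 with group means removed. Its r with 1450510_a_at was 0.64 (permutation, adjusted p = 0.0515; rho 0.62, adjusted p = 0.0778). The choroid plexus median ranged widely among mice (-1.76 to 0.96 in 118Q knockin, -1.98 to 1.73 in 118Q wild type, -2.48 to 0.56 in 11Q knockin, 0.81 to 1.30 in 11Q wild type), and its r with the Cacna1a probe sets was -0.09 to 0.24. Microglia markers, 7 measured, had a median difference of 0.66 between 118Q knockin mice and littermates, with 2 called higher, the microglial receptor Trem2 (0.77) and its adaptor Tyrobp (1.03), where 1.14% of all genes were called. With 1 array left out that count was 0 to 3, with 0 without wild type replicate 3 and 1 without knockin replicate 3 or wild type replicate 1, and Tyrobp was not called over 1 probe set per gene (adjusted p = 0.0549). The part of these cell types in the Cacna1a values was not tested.

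The other genes that make a pore were measured for 6 of 9 members. None was called between 118Q knockin and wild type mice by limma, and 1 had an unadjusted p below 0.05. That gene was Cacna1g, a T-type channel that opens near resting potential, at -0.58 ± 0.17 (adjusted p = 0.0984). Cacna1g was lower in 118Q knockin than in 11Q knockin mice by a difference of -0.84 (adjusted p = 0.00836), and Cacna1b, the N-type channel that also drives transmitter release, differed by -0.44 (adjusted p = 0.0461). Leaving out 1 knockin array ended the Cacna1b call in 4 of 6 cases, with adjusted p up to 0.163. Cacna1b also differed by -0.30 between the wild types of the lines (unadjusted p = 0.0451 by limma, not called). Against their own littermates 118Q knockin mice differed in Cacna1b by -0.14 (adjusted p = 0.639). Cacna1e and Cacna1c differed by -0.50 and -0.32 and were not called. The list's median was -0.38 against 0.09 over all genes, of which 12% were called.

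Among 12 of 16 auxiliary subunits measured, 1 was called lower in 118Q knockin mice than in littermates and 0 higher, where 1.14% of all genes were called. Cacna2d2, the alpha2delta subunit that Purkinje cells express and whose loss causes ataxia in mice, had a mean of 6.73 in 118Q knockin and 7.48 in wild type mice (-0.75 ± 0.15 SE, adjusted p = 0.0214 by limma). It missed in 4 of the 6 fits that left out 1 of these arrays (adjusted p up to 0.0923) and over 1 probe set per gene (0.0572). In the 11Q line it differed by 0.05. Cacnb2 differed by -0.42, Cacnb4, the beta subunit mutated in the lethargic mouse, by -0.32 and Cacna2d3 by -0.20, without passing. Between the knockin groups 2 of 12 were called lower, a share near the 12% of all genes called. These were Cacna2d2 (-0.84) and Cacna2d1 (-0.38), and the Cacna2d1 call, named after its value was seen, ended in 5 of the 6 fits that left out 1 knockin array.

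Proteins of the release site hold the channel close to synaptic vesicles. Of 19 measured release site genes, 0 were called by limma between 118Q knockin and wild type mice and 0 between the knockin groups, with 4 at an unadjusted p below 0.05 in each comparison. Pclo, a scaffold of the active zone, differed by -0.69, Unc13b, a vesicle priming factor, by -0.38, Syt2, a calcium sensor of release, by -0.30 and Snap25, a fusion protein, by -0.26 between 118Q knockin and wild type mice (adjusted p = 0.0995 to 0.264). Of 11 calmodulin and calcium sensor genes 0 were called by limma in either comparison, with 1 and 2 at an unadjusted p below 0.05. Ppp3ca, a catalytic subunit of calcineurin, differed by -0.29 between 118Q knockin and wild type mice. Low unadjusted p-values were common over all probe sets. Between 118Q knockin and wild type mice 1450510_a_at, at an unadjusted p of 0.0538 by limma, ranked 5061 of 27002. Between the knockin groups 12% of all genes passed even the adjusted threshold. The unadjusted counts are therefore no result about release site or calcium sensor genes.

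Calcium that enters a Purkinje cell is handled by pumps, buffers and release channels. The list of Purkinje calcium signalling genes also held signalling enzymes and partner proteins. Of its 15 measured genes, 3 were called lower and 0 higher in 118Q knockin mice than in littermates, where 1.14% of all genes were called. The list median was -0.50 against 0.06 over all genes. The level of Atp2a2, which pumps calcium into the endoplasmic reticulum, fell by 0.69 ± 0.13 on the log2 scale (SE, adjusted p = 0.0155 by limma). Plcb3, a phospholipase C, differed by -0.52 and Car8, a partner of the inositol trisphosphate receptor, by -0.65, and both were also called (adjusted p = 0.0357 and 0.0462). With p-values adjusted over 1 probe set per gene Plcb3 (0.0599) and Car8 (0.0689) were not called. Plcb3 was also lower in 11Q knockin mice than in their littermates, by -0.28 (unadjusted p = 0.0275, adjusted p = 0.977 by limma). Between the knockin groups Plcb3 differed by 0.01, so its low level was not particular to 118Q knockin mice. Itpka differed by -0.50 (adjusted p = 0.0502). With 1 array left out the count was 0 to 6, and it was 0 without knockin replicate 2 or 3 or wild type replicate 1 or 3. Against 11Q knockin mice 8 were called lower, where 12% of all genes were called in either direction, and 2 to 9 with 1 knockin array left out. Car8 and Calb1 stand in both this list and that of the Purkinje markers.

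Calcium-activated potassium channels, which open on calcium that enters through the P/Q channel, moved both ways between the knockin groups. Of 5 measured, 2 were called higher and 1 lower in 118Q than in 11Q knockin mice, where 12% of all genes were called. Kcnn2, the SK2 channel of Purkinje cells, had a mean of 5.78 in 118Q knockin and 5.11 in 11Q knockin mice (0.67 ± 0.14 SE, adjusted p = 0.0093 by limma), and that call held without each of the 6 knockin arrays. Kcnmb4, a BK channel subunit, differed by 0.40 and Kcnma1, the BK channel pore, by -1.05, calls that ended in 3 and 5 of those 6 fits. Between 118Q knockin mice and littermates 0 were called by limma and 2 had an unadjusted p below 0.05. Low unadjusted p-values were common in that comparison, where 1450510_a_at, at 0.0538 by limma, ranked 5061 of 27002.

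A fragment of the channel's C terminus has been described as a transcription factor, with Btg1, Atp2b2 and Grn among its named targets. Between 118Q knockin and wild type mice they differed by -0.02, -0.38 and -0.19, and 0 were called by limma, with 1 at an unadjusted p below 0.05. Between the knockin groups Atp2b2, a calcium pump of the plasma membrane, was called (-0.57, adjusted p = 0.00642). Of 7 other measured genes whose repeats cause polyglutamine diseases, 0 were called by limma against littermates, with 1 at an unadjusted p below 0.05. Between the knockin groups Atxn2 (1419866_s_at, -0.57) and Htt (-0.66) were called lower, where 12% of all genes were called, and the Htt call ended in 4 of 6 fits without 1 knockin array.

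**Figure D4:**
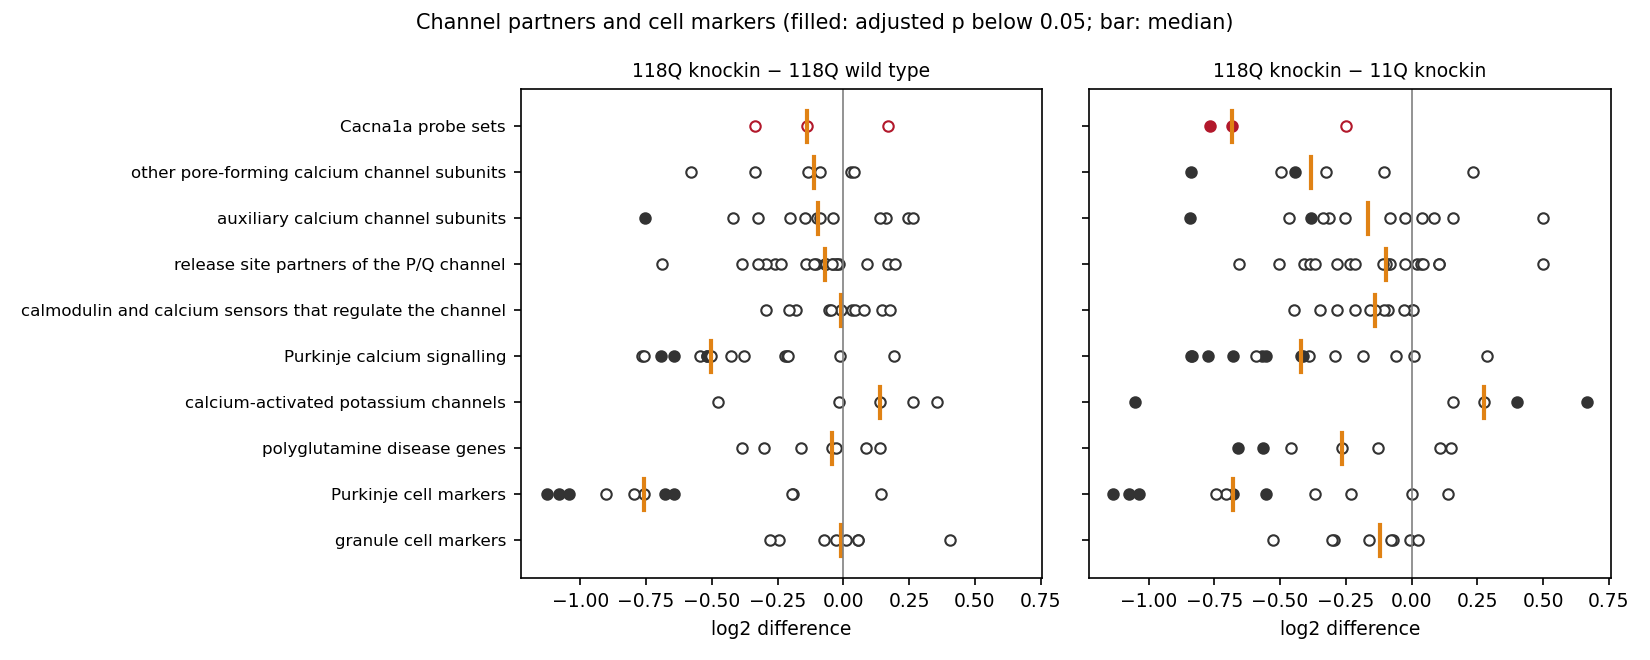
Log2 differences of the tested Cacna1a probe sets and of the genes of the lists named at the left for 118Q knockin against 118Q wild type mice (left) and against 11Q knockin mice (right), 1 point per probe set or gene, filled at an adjusted p below 0.05, with a bar at the median. The Purkinje marker and Purkinje calcium lists have medians of -0.76 and -0.50 on the left, where 0 of the 3 Cacna1a probe sets are filled.

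The genes whose levels ran most like those of Cacna1a differed by probe set. Over the 12 arrays 1430408_at was nearest to Nfasc, a protein of the axon initial segment, with a Pearson r of 0.96, then to Desi1, Nav2, Rrbp1 and Rbbp4 (0.93 to 0.96). Of these 5 genes the probe sets differed between the knockin groups by -1.30 (Nav2) to -0.78 (Rbbp4). Since they were picked for likeness over these arrays, their differences are given as a description. For 1450510_a_at the nearest were Atxn2, Tnks, Dennd1b, Gapvd1 and Rfx7 (r = 0.93 to 0.95), whose probe sets differed between the knockin groups by -0.83 to -0.33. The Atxn2 probe set here, 1459363_at, is not the one given for the polyglutamine genes, and at -0.38 it was not called between the knockin groups (adjusted p = 0.0796 by limma). For 1459996_at they were Rims1, a scaffold that tethers the channel at release sites, Kdm2a, Camk2d, Clstn1 and Tcf4 (r = 0.94 to 0.95), which differed between the knockin groups by -0.28 to -0.10. These are the highest of 22024 probe sets, taken from 12 arrays in 4 groups.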

How the data were processed

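Cerebellar RNA of 12 mice was hybridised to Affymetrix arrays, 1 array per mouse. The deposited log2 values had been made by the authors with RMA, per the submitters' processing notes, with no version given; RMA in its usual form scales all arrays to 1 distribution, so a global shift in RNA amount is not visible. Genes were named from the array's annotation, which can be old, and a probe set with several symbols was named for none (932 probe sets, with 9211 more unnamed). Groups followed the sample titles. A limma 3.58.1 group-means model (R 4.3.3) was fitted to all 12 arrays over 27002 probe sets, after removal of 64 control probe sets and of the lowest 40% by mean. Tests were two-sided, p-values were adjusted by Benjamini-Hochberg over all tested probe sets, and an adjusted p below 0.05 was called. Correlation p-values came from 100000 permutations of all 12 arrays regardless of group.

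The members, gene lists and tests were chosen with earlier results of these data known. All Cacna1a probe sets are named. Of each list up to 4 genes are named by smallest unadjusted p between 118Q knockin and wild type mice, and for each probe set the 5 genes most like it. Cacna2d1, Calb1, Gabra6 and Pcp2 are further names chosen with their values seen. A list used the probe set with the highest mean of each gene. Counts of list genes at an unadjusted p below 0.05 are given as a description, since such p-values were common over all probe sets in the comparisons of 118Q knockin mice. Alternatives were other filters, scalings, variance priors and array weights, only the groups compared, a replicate block, RNA covariates and each array left out. The code was tested on simulated data. Arrays give no read depth, and their number limits the precision.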

Additional observations from a re-analysis of the deposited data

How the results depend on the processing

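Of 18 results on the 3 tested probe sets, 5 kept their direction and their side of the threshold under every alternative, and 196 of 213 comparisons with alternatives other than leaving out an array did so. With 18S signal as covariate the difference between 118Q and 11Q knockin mice was -0.67 for 1430408_at and -0.17 for 1450510_a_at, and that between the lines -0.52 and -0.20, none called. With the spike-in signal as covariate these were -0.28 and -0.68, and -0.23 and -0.55, none called. At an unadjusted p below 0.05, 1430408_at (-0.40) and 1450510_a_at (-0.42) passed between the wild types. Signs turned for uncalled results: array weights gave 0.20 for 1430408_at between 118Q knockin and wild type mice and 0.012 for 1450510_a_at in the 11Q line. The 18S covariate gave 0.059 for 1450510_a_at between 118Q knockin and wild type mice, 0.0636 for its difference of effects and -0.47 for 1459996_at between 118Q knockin and wild type mice. The spike-in covariate gave 0.0127 for 1430408_at between 118Q knockin and wild type mice. With replicate 3 of each wild type group left out, 1459996_at gave -0.11 between 118Q knockin and wild type mice. The cause was not tested.

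With 1 array left out, the knockin difference was -0.90 to -0.61 for 1430408_at (called in 5 of 6) and -0.74 to -0.62 for 1450510_a_at (4 of 6). For 1459996_at it was -0.11 to 0.37 between 118Q knockin and wild type mice, -0.32 to 0.16 for the difference of effects and -0.41 to 0.0754 between wild types. The sign turned without 118Q wild type replicate 3 in the first and last of these, and without 118Q wild type replicate 1 or 2 or 11Q wild type replicate 3 in the difference of effects. Deviations of same-numbered arrays from their group means correlated at r from -0.09 to 0.01 in the 118Q line, from -0.15 to 0.21 in the 11Q line, from -0.17 to -0.01 between the knockin groups and at 0.18, 0.09 and 0.45 between the wild type groups. In none of these were all 3 pairs over 0.1, so the numbers were not taken to pair the mice. With a replicate block, 1450510_a_at differed by -0.34 between 118Q knockin and wild type mice (adjusted p = 0.367), and no Cacna1a call changed with it or with a block across the lines. Over all probe sets the block within a line gave 471 calls against 605 without it, and 9 against 26 for the difference of effects. Over all probe sets 605 were called between 118Q knockin and wild type mice, 142 to 1446 with 1 array left out, 97 with the spike-in covariate, 0 with the 18S covariate, 178 without replicate 3 of each wild type group and 24 over 1 probe set per gene. Between the knockin groups 3655 were called, and 1564 to 4492 with 1 knockin array left out. Depth is not defined for arrays, and 1444455_at lay too low to test.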

Other observations

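With each group's mean removed, other genes ran most like Cacna1a over the 12 arrays. For 1430408_at these were Ank3, a scaffold of the axon initial segment, Ggct, Nisch, Fat1 and Ap3d1 (r = 0.91 to 0.93). For 1450510_a_at they were Fn1, Zfp866, Tmtc1, Atxn10 and Cxxc1 (r = 0.90 to 0.92). For 1459996_at they were Clstn1, Bsg, Car7, Abhd12 and Snrnp70 (r = 0.96 to 0.98). Clstn1 was the only gene named for 1 probe set by both measures. Replicate 3 of the 118Q wild types and replicate 3 of the 11Q wild types, the low arrays of 1459996_at, deviated from their group means together over all tested probe sets (r = 0.45).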
